A study of Homo sapiens with 8 samples.

Results

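The genes described here are 10 lysine deacylases of the human genome, chosen by name as candidate enzymes that take lactyl groups off proteins. They are the histone deacetylases HDAC1, HDAC2, HDAC3, HDAC6 and HDAC8 and the sirtuins SIRT1, SIRT2, SIRT3, SIRT6 and SIRT7. Each of the 10 symbols matched 1 row of a count table of 61517 genes, and 10 of 10 passed the expression filter that left 15554 genes. The rule that picks them uses symbols and no measured value.

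Poly(A)-selected RNA was sequenced from KYSE150, a cell line of human esophageal squamous cell carcinoma kept in RPMI-1640 with serum, in 8 libraries. There were 4 groups of 2 libraries, and all came from this 1 cell line. The first was kept in normoxia and the second in hypoxia, the third in hypoxia plus sodium oxamate, which inhibits lactate dehydrogenase, and the last in hypoxia plus oxamate and NALA, read from the labels' protocols as sodium lactate. The sources used here give no dose, time of treatment or oxygen level, and the title places the work in a study of HIF-1α lactylation in hypoxia. The last group is called the lactate group below, and no group had lactate without oxamate.

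Protein lysines can carry acetyl, lactyl and other acyl groups, which acyltransferases add and deacylases remove. The classical histone deacetylases use zinc, and the unrelated sirtuins use NAD. HDAC1 and HDAC2 are the catalytic subunits of the NuRD, SIN3, CoREST and MiDAC complexes, HDAC3 serves nuclear receptor corepressors, and HDAC8 acts outside these complexes, for instance on cohesin. HDAC6 is mainly cytoplasmic and deacetylates tubulin. SIRT1, SIRT6 and SIRT7 are mainly nuclear, SIRT2 is mainly cytoplasmic and SIRT3 is mitochondrial. HDAC1, HDAC2, HDAC3 and several sirtuins have been described as delactylases. RNA levels, not enzyme activity or lactylation, were measured here.

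Total counts ran from 21845676 to 29406061 per library. Values are CPM, counts scaled by library size with TMM factors, and a change is a log2 fold change ± standard error from the quasi-likelihood test of edgeR over all 15554 genes. Its p-value was adjusted by Benjamini-Hochberg over those genes. The plain rule asked for an adjusted p under 0.05. Because most tested genes passed that rule in each comparison, a second rule asked for a change greater than 1.5-fold (glmTreat of edgeR, same threshold). No label says that the libraries of a group are separate cultures, and the p-values then reflect only the spread among these libraries, which may be technical. In bulk RNA, fewer cells expressing a gene and less RNA per cell cannot be told apart. Sums of markers are in CPM of the library total without TMM factors. Of the squamous epithelial markers, 11 of 11 were tested, and their sum ran from 3760 CPM in normoxia to 5500 with oxamate. KRT5 held the largest share. Its TMM-scaled means were 1680 CPM in normoxia and 3490 with oxamate, a scale on which they are not parts of these sums. With oxamate against hypoxia 5 of the 11 markers rose and 5 fell. TP63 stood at TMM-scaled means of 125 CPM in normoxia, 246 in hypoxia, 79.9 with oxamate and 174 in the lactate group. SOX2 was near 0, at up to 0.407 CPM in any library. Leukocyte markers summed to between 0.128 and 2.15 CPM, with CD3D, MS4A1 and FCGR3A among those at 0. Fibroblast markers summed to between 8.69 and 8.97 CPM in hypoxia and between 0.714 and 3.02 elsewhere, with COL3A1, DCN, PDGFRA and FAP at 0. Endothelial markers summed to between 0.551 and 2.45 CPM, with KDR at 0. The part of these low levels in the results was not tested.

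Upstream sequence is shown first for SIRT1, the member with the widest range over the 4 groups, and for 4 HDAC members, and only bases outside annotated exons are printed, which shortens HDAC2 to 113 bases and HDAC3 to 79. The promoter table of RefSeq (GRCh38.p14) held 9 of the 10 members, all but SIRT7, and the 250 bases before each start were searched on both strands. Capitals mark ACGTG or GCGTG on either strand, the core of the hypoxia response element bound by HIF factors. CACGTG, the E-box bound by MYC and related factors, holds ACGTG on both strands. The stretches are 5′ to 3′ on the strand of the gene. They are chr10:67884406-67884655 (+) for SIRT1, chr1:32291833-32292082 (+) for HDAC1, chr6:113971286-113971398 (-) for HDAC2, chr5:141636871-141636949 (-) for HDAC3 and chrX:48801148-48801376 (+) for HDAC6.
SIRT1: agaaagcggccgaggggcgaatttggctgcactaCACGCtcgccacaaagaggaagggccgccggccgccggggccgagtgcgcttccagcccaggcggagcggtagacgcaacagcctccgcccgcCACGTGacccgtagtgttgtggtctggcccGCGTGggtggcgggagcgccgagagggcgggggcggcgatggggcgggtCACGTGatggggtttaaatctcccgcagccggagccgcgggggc
HDAC1: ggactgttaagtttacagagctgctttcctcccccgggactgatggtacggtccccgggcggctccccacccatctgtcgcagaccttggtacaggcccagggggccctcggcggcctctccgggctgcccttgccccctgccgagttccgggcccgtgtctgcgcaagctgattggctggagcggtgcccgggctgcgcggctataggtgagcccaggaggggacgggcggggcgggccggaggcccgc
HDAC2: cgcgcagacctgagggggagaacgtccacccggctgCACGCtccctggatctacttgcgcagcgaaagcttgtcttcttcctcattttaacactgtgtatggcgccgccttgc
HDAC3: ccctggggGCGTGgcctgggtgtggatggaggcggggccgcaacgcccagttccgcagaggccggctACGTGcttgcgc
HDAC6: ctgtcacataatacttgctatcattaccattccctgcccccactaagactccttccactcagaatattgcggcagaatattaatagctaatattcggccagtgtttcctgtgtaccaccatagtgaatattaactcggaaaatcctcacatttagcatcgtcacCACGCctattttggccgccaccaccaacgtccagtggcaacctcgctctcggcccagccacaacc
The stretch before SIRT1 holds 4 capital runs. Its first CACGTG run lies near the middle of the stretch and its second nearer the gene start. Of 35116 promoter windows of the same length, 43.2% hold ACGTG or GCGTG at least once, 6.34% hold CACGTG and 0.535% hold CACGTG at 2 or more positions. The HDAC1 stretch has no capitals, and those of HDAC2 and HDAC6 have 1 run each. The full HDAC3 window held 3 matches, and the printed bases hold 2. HDAC6 had 3 windows, with 1, 1 and 0 matches, and the first is printed. Among members not printed, HDAC8 and SIRT3 held 0 matches, SIRT2 held 1 and the 2 windows of SIRT6 held 0 and 1. A match is a description of the letters and not a measured binding site.

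Across the 4 groups the members differed in how far their level moved. Between the lowest and the highest group mean, SIRT1 spanned 3.78-fold, SIRT3 3.20-fold, HDAC6 and SIRT7 2.14-fold each and HDAC2 2.04-fold. The narrowest span was that of SIRT2, at 1.66-fold. Per kilobase of transcript, HDAC1 and HDAC3 were among the 3 most abundant members in every group, whether the median coding transcript or the union of exons was used as length. HDAC1 reached 79.7 CPM per kilobase of median coding transcript in normoxia. The place of HDAC2 depended on the length used, since its exon union of 15461 bases is far longer than its median coding transcript of 2084 bases.

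**Figure D1:**
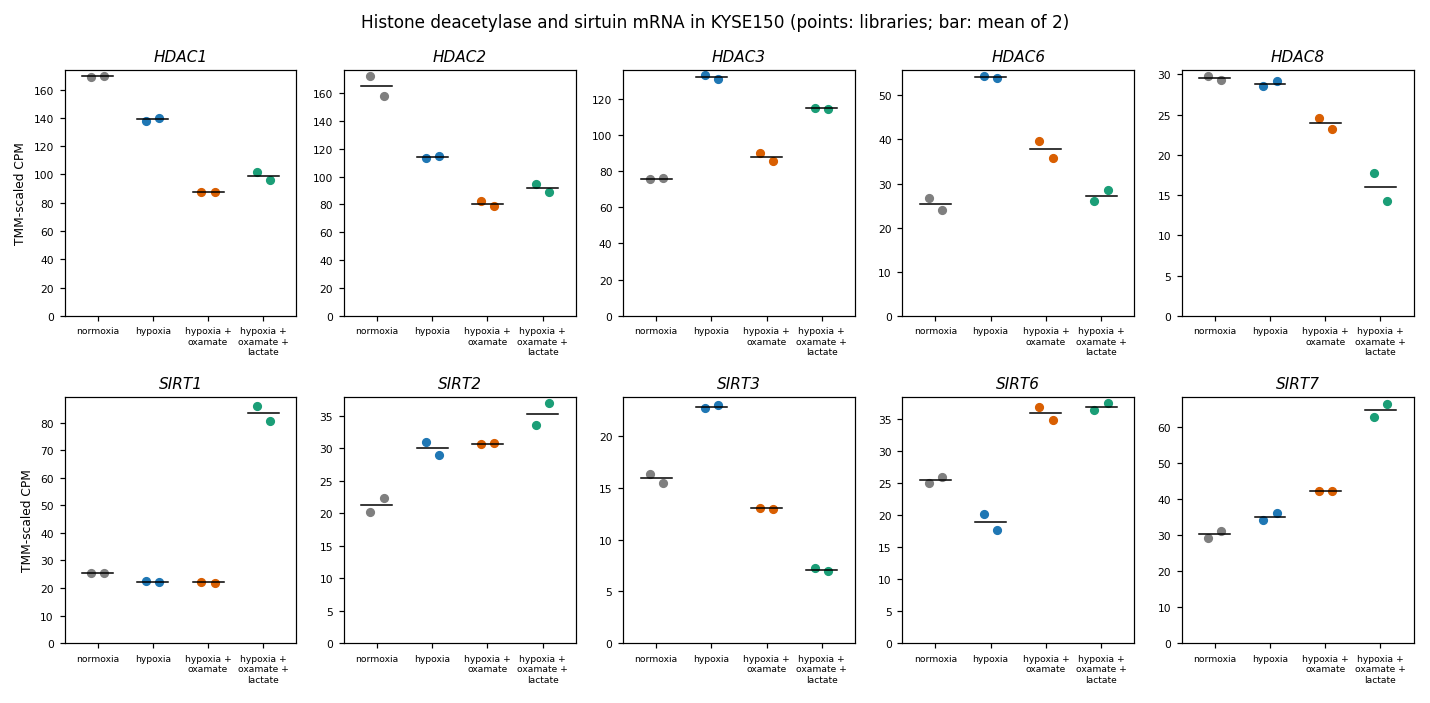
Level of the 10 members in each of the 8 libraries, in TMM-scaled CPM on the vertical axis (starting at 0) and by group on the horizontal axis. Points are single libraries and bars are group means. SIRT1 stands at 86.2 and 80.7 CPM in the lactate group and at 22 to 26 CPM elsewhere, and SIRT3 is highest in hypoxia and lowest in the lactate group.

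The class I pair HDAC1 and HDAC2 was highest in normoxia and lowest with oxamate. HDAC1 (ENSG00000116478, chromosome 1, 32292086 to 32333635, plus strand, GRCh38) stood at 169 and 170 CPM in normoxia, 138 and 140 in hypoxia, 87.4 and 87.6 under oxamate and 102 and 96.3 in the lactate group. No library of one group fell within the range of another. Its log2 fold change was -0.29 ± 0.037 in hypoxia against normoxia (adjusted p = 3.8e-07) and -0.67 ± 0.039 with oxamate against hypoxia (adjusted p = 4.88e-13). Lactate on top of oxamate gave 0.18 ± 0.041 (adjusted p = 0.000595). This call was lost with a stricter low-count filter (0.06) and without oxamate replicate 1 or 2 (0.08 in both fits).

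HDAC2 (ENSG00000196591, chromosome 6, 113933028 to 114011308, minus strand), the close paralog of HDAC1, stood at 172 and 158 CPM in normoxia, 113 and 115 in hypoxia, 82.3 and 78.9 under oxamate and 94.4 and 89.2 in the lactate group. Its order of groups was that of HDAC1, with no overlap between them. The change was -0.53 ± 0.043 in hypoxia against normoxia (adjusted p = 2.35e-10) and -0.50 ± 0.046 with oxamate against hypoxia (adjusted p = 1.61e-09). With lactate added to oxamate it was 0.19 ± 0.048 (adjusted p = 0.00193), and it no longer passed without oxamate replicate 1 (0.12) or 2 (0.06). Nor did it pass with a stricter low-count filter (0.07) or DESeq2 (0.13). Upper quartile normalization turned the difference of lactate against oxamate to -0.01 for HDAC1 and HDAC2 alike. Against normoxia, the lactate group was lower by a log2 fold change of -0.77 ± 0.039 for HDAC1 and -0.85 ± 0.045 for HDAC2.

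HDAC3 and HDAC6 were higher in hypoxia than in any other group. HDAC3 (ENSG00000171720, chromosome 5, 141620876 to 141636870, minus strand) stood at 75.3 and 76.3 CPM in normoxia, 133 and 131 in hypoxia, 89.9 and 85.4 under oxamate and 115 and 114 in the lactate group. Its groups did not overlap, and the lactate group lay between oxamate and hypoxia. HDAC3 rose by 0.80 ± 0.040 in hypoxia against normoxia (adjusted p = 3.49e-14), fell with oxamate (-0.59 ± 0.040, adjusted p = 5.11e-12) and rose with lactate against oxamate (0.39 ± 0.041, adjusted p = 2.11e-08). The rise in hypoxia passed the 1.5-fold rule (adjusted p = 7.93e-06), and the fall with oxamate did not (adjusted p = 0.32).

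HDAC6 (ENSG00000094631, chromosome X, 48801377 to 48824982, plus strand) stood at 26.7 and 23.9 CPM in normoxia, 54.3 and 54.0 in hypoxia, 39.7 and 35.8 under oxamate and 26.0 and 28.5 in the lactate group. Only the normoxia and lactate groups overlapped, and they did not differ by the test (0.12 ± 0.074, adjusted p = 0.162). HDAC6 rose by 1.10 ± 0.065 in hypoxia (adjusted p = 9.37e-13), the largest rise among the members there, and 15.2% of all tested genes rose more. It fell with oxamate (-0.52 ± 0.063, adjusted p = 1.25e-07) and was lower again with lactate on top (-0.47 ± 0.071, adjusted p = 5.17e-06). The lactate group against hypoxia passed the 1.5-fold rule (-0.99 ± 0.068, adjusted p = 2.33e-06).

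HDAC8 (ENSG00000147099, chromosome X, 72329516 to 72573199, minus strand), the cohesin deacetylase, stood at 29.8 and 29.3 CPM in normoxia, 28.5 and 29.2 in hypoxia, 24.6 and 23.2 under oxamate and 17.8 and 14.3 in the lactate group. The normoxia and hypoxia libraries lay side by side (-0.03 ± 0.074, adjusted p = 0.706), and the other groups were lower and apart. With oxamate the difference from hypoxia was -0.27 ± 0.077 (adjusted p = 0.00286). It no longer passed with DESeq2 (-0.19, adjusted p = 0.124) or without oxamate replicate 1 (-0.21) or 2 (-0.13). HDAC8 fell with lactate against oxamate (-0.59 ± 0.087, adjusted p = 3.57e-06). The lactate group against hypoxia gave -0.86 ± 0.084, which passed the 1.5-fold rule (adjusted p = 0.00114). It missed that rule with DESeq2 (-0.83, adjusted p = 0.118) and without lactate replicate 2 (-0.7).

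Among the 5 sirtuin members SIRT1 changed most, and it did so in the lactate group. SIRT1 (ENSG00000096717, chromosome 10, 67884669 to 67918390, plus strand), a nuclear deacetylase of p53, FOXO factors and histones, stood at 25.4 and 25.5 CPM in normoxia, 22.5 and 22.2 in hypoxia, 22.2 and 21.9 under oxamate and 86.2 and 80.7 in the lactate group. Both lactate libraries were above the other 6, and the hypoxia and oxamate libraries lay next to each other. SIRT1 rose 3.78-fold with lactate against oxamate (1.92 ± 0.058, adjusted p = 1.07e-17). The lactate group was 3.73-fold above hypoxia without drug (1.90 ± 0.057, adjusted p = 4.08e-18). Of all tested genes, 5.86% rose more in the first of these and 3.83% in the second. Over 17 settings, including each library left out, the first ranged from 1.73 to 1.98 and passed the 1.5-fold rule in all 17. Oxamate against hypoxia gave -0.02 ± 0.066 (adjusted p = 0.804), which was 0.06 with RLE size factors and passed as lower on unscaled library totals (-0.34, adjusted p = 7.73e-05). SIRT1 was lower in hypoxia than in normoxia (-0.19 ± 0.063, adjusted p = 0.0104). This call was lost with upper quartile normalization (-0.08, adjusted p = 0.243) and DESeq2 (-0.19, adjusted p = 0.0665). It was also lost without normoxia replicate 2 or hypoxia replicate 2 (-0.18 in both fits).

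By likeness over the 8 libraries (Euclidean distance of centred log2 CPM among 9116 protein-coding candidates whose mean log2 CPM was 3 or more), NRBF2, TXNRD1 and RNF139 were closest to SIRT1. Their mean levels in normoxia, hypoxia, oxamate and lactate were 18.5, 16.1, 17.2 and 59.7 CPM for NRBF2, an autophagy factor. They were 208, 170, 188 and 635 CPM for TXNRD1, the cytosolic thioredoxin reductase. RNF139, a ubiquitin ligase of the endoplasmic reticulum, stood at 26.6, 25.7, 24.6 and 93.7 CPM. Their distances from SIRT1 were 0.199, 0.213 and 0.23. Each stood highest in the lactate group, which follows from picking them by likeness to SIRT1 over these same libraries.

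SIRT3 moved opposite to SIRT1 in the lactate group. SIRT3 (ENSG00000142082, chromosome 11, 215458 to 236931, minus strand), the main mitochondrial deacetylase, stood at 16.4 and 15.5 CPM in normoxia, 22.7 and 23.0 in hypoxia, 13.1 and 13.0 under oxamate and 7.22 and 6.93 in the lactate group. All 4 groups were apart, and the lactate libraries were the lowest. SIRT3 rose in hypoxia (0.52 ± 0.077, adjusted p = 2.98e-06), fell with oxamate (-0.81 ± 0.081, adjusted p = 5.74e-09) and fell further with lactate on top (-0.89 ± 0.099, adjusted p = 5.48e-08). Against hypoxia, the lactate group was at 0.310 of the level (-1.69 ± 0.091, adjusted p = 1.36e-13), past the 1.5-fold rule in 17 of 17 settings. The oxamate step missed that rule with DESeq2 (-0.72, adjusted p = 0.565) and without oxamate replicate 1 or 2 (-0.7 in both fits). SIRT3 shares 316 exon bases, 6.07% of its own, with PSMD13 on the opposite strand, a proteasome subunit at 233, 166, 380 and 344 CPM in the 4 groups in the order above. The strand setting of the counting is not stated, so reads of the shared bases cannot be assigned. The fitted log2 fold changes of PSMD13 were -0.49 in hypoxia, 1.19 with oxamate and -0.14 with lactate on top, and their part in the SIRT3 values was not tested.

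SIRT2 (ENSG00000068903, chromosome 19, 38878555 to 38899862, minus strand), a mainly cytoplasmic tubulin deacetylase, stood at 20.1 and 22.3 CPM in normoxia, 31.0 and 29 in hypoxia, 30.6 and 30.7 under oxamate and 33.6 and 37.0 in the lactate group. Normoxia was the low group, and the hypoxia and oxamate libraries overlapped. SIRT2 rose in hypoxia (0.50 ± 0.071, adjusted p = 1.89e-06). Oxamate gave 0.03 ± 0.069 (adjusted p = 0.707), which turned to -0.04 with upper quartile normalization. On unscaled library totals it passed as lower (-0.29, adjusted p = 0.000625). In the fit of those 2 groups alone it passed as higher (0.13, adjusted p = 0.0447). Lactate against oxamate gave 0.21 ± 0.070 (adjusted p = 0.0127), and this call was lost without either oxamate library (0.11 in both fits) or lactate replicate 2 (0.14). It was also lost with RLE size factors (0.15), upper quartile normalization (0.02), a stricter low-count filter (0.09) and DESeq2 (0.15). The lactate group against hypoxia (0.24 ± 0.069, adjusted p = 0.00377) did not pass without hypoxia replicate 2 (0.19) or lactate replicate 2 (0.16), and it changed sign with upper quartile normalization (-0.02) and unscaled totals (-0.05).

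SIRT6 and SIRT7, the chromatin sirtuins, were both higher in the oxamate and lactate groups than in hypoxia, except that SIRT7 with oxamate changed sign on unscaled library totals (-0.05). SIRT6 (ENSG00000077463, chromosome 19, 4174109 to 4182604, minus strand), a histone H3 deacetylase of DNA repair and glycolytic genes, stood at 25.0 and 25.9 CPM in normoxia, 20.1 and 17.7 in hypoxia, 36.9 and 34.8 under oxamate and 36.3 and 37.4 in the lactate group. Hypoxia was the low group, and the oxamate and lactate libraries overlapped. SIRT6 fell in hypoxia (-0.43 ± 0.072, adjusted p = 1.51e-05) and rose with oxamate (0.92 ± 0.071, adjusted p = 5.65e-11), the largest rise among the members in that step. Lactate on top gave 0.04 ± 0.067 (adjusted p = 0.608), which was -0.01 with RLE size factors and -0.15 with upper quartile normalization.

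SIRT7 (ENSG00000187531, chromosome 17, 81911939 to 81921323, minus strand), a nucleolar sirtuin, stood at 29.2 and 31.2 CPM in normoxia, 34.1 and 36.1 in hypoxia, 42.2 and 42.3 under oxamate and 62.8 and 66.5 in the lactate group. Levels increased in that order of groups without overlap. The step into hypoxia was 0.22 ± 0.059 (adjusted p = 0.00244), not passed without normoxia replicate 1 (0.16, adjusted p = 0.0524). Oxamate gave 0.27 ± 0.058 (adjusted p = 0.000243). Lactate against oxamate gave 0.62 ± 0.055 (adjusted p = 1.49e-09), which did not pass the 1.5-fold rule (adjusted p = 0.326). SIRT7 shares 105 exon bases, 1.71% of its own, with MAFG on the same strand, which stood at 37.2, 16.6, 23.3 and 48.2 CPM in normoxia, hypoxia, oxamate and lactate. SIRT2 shares 40 bases, 0.643%, with NFKBIB on the opposite strand, at 49.4, 16.9, 65.1 and 93.2 CPM. The part of either partner in these values was not tested. HDAC2, HDAC3 and HDAC8 share between 0.446% and 9.20% of their exon bases with genes at up to 2.04 CPM in any group. HDAC1, HDAC6, SIRT1 and SIRT6 share no exon bases with another gene of the annotation.

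The first comparison asks what hypoxia changed. HDAC3, HDAC6, SIRT2, SIRT3 and SIRT7 rose, HDAC1, HDAC2, SIRT1 and SIRT6 fell, and HDAC8 did not pass. Thus 5 of 10 members were higher, beside 36.7% of all tested genes, and 4 were lower, beside 36.8%. Past 1.5-fold, 2 members were higher (HDAC3 and HDAC6), beside 18.5% of tested genes, and 0 lower by edgeR, beside 18.3%, with 0 also at an unadjusted p under 0.05 and by DESeq2. The median log2 fold change of the members was 0.09 and that of all tested genes 0.02. The summed fibroblast markers, at most 8.97 CPM, were also highest in hypoxia, and their part was not tested.

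**Figure D2:**
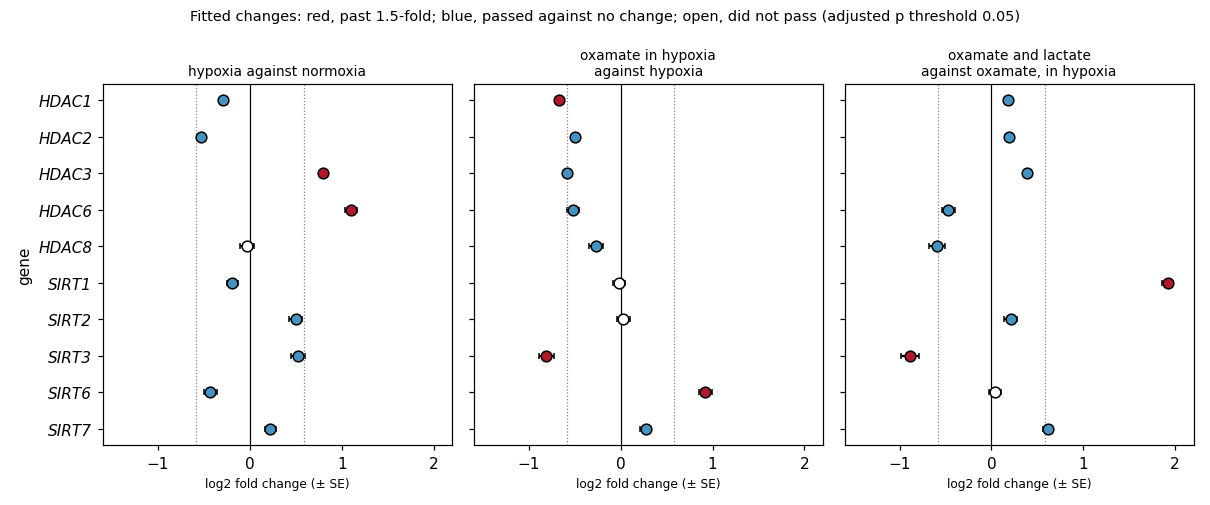
Log2 fold change of the 10 members (horizontal axis) in hypoxia against normoxia, oxamate against hypoxia and lactate against oxamate, with bars of 1 standard error. Red points passed the 1.5-fold rule, blue points the plain rule and open points neither, and dotted lines mark 1.5-fold. SIRT1 reads 1.92 and SIRT3 -0.89 with lactate against oxamate. All 5 HDAC members lie below 0 with oxamate against hypoxia, where the median of all tested genes was -0.20 and 44.8% passed as lower.

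Oxamate in hypoxia addresses the members' response to inhibition of lactate dehydrogenase. All 5 HDAC members and SIRT3 fell, SIRT6 and SIRT7 rose, and SIRT1 and SIRT2 did not pass. Thus 6 members were lower, beside 44.8% of all tested genes, and 2 were higher, beside 35.7%. Past 1.5-fold, 2 were lower (HDAC1 and SIRT3), beside 31.6%, and 1 was higher (SIRT6), beside 21.2%. The count of 2 went to 1 without hypoxia replicate 2 and to 0 without oxamate replicate 1 or 2. The median was -0.39 for the members and -0.20 for all tested genes. Each HDAC member had between 52.4% (HDAC8) and 63.1% (HDAC1) of all tested genes above it in log2 fold change. On unscaled library totals the median of all genes moved by -0.32, and 5 members then fell past 1.5-fold and 0 rose past it.

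Adding lactate to oxamate asks which of these levels lactate moves. HDAC1, HDAC2, HDAC3, SIRT1, SIRT2 and SIRT7 passed as higher, HDAC6, HDAC8 and SIRT3 as lower, and SIRT6 did not pass. The 6 higher members stand beside 33.2% of tested genes and the 3 lower beside 31.7%. Without oxamate replicate 1 or 2, 3 members were higher (HDAC3, SIRT1 and SIRT7). Past 1.5-fold, 1 was higher (SIRT1), beside 17.4%, and 1 lower (SIRT3), beside 7.12%. The median was 0.18 for the members and -0.02 for all tested genes, and with upper quartile normalization these were -0.01 and -0.21. This comparison and the previous one share the oxamate libraries. For HDAC3 the values side by side were -0.59 with oxamate and 0.39 with lactate on top, and for SIRT7 they were 0.27 and 0.62.

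Set directly against hypoxia, the lactate group had 4 members higher (SIRT1, SIRT2, SIRT6 and SIRT7), beside 38.5% of tested genes, and 6 lower, beside 40.2%. The 6 were all 5 HDAC members and SIRT3. Past 1.5-fold, 3 were higher (SIRT1, SIRT6 and SIRT7), beside 21.7%, and 3 lower (HDAC6, HDAC8 and SIRT3), beside 25.9%. On unscaled library totals 1 was higher past 1.5-fold. The median was -0.26 for the members and -0.05 for all tested genes. The median size of change, whatever its direction, was 0.87 for the members and 0.79 for all tested genes.

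Against normoxia, oxamate in hypoxia left 5 members higher, beside 31.9% of tested genes, and 5 lower, beside 40.1%. HDAC2 (-1.03 ± 0.045) and HDAC1 (-0.95 ± 0.039) changed most. Without oxamate replicate 2, 2 members were lower, and without oxamate replicate 1, 3 were. HDAC8, SIRT1 and SIRT3 account for the lost calls, at -0.31 ± 0.077, -0.21 ± 0.065 and -0.29 ± 0.084 in the full fit. On unscaled totals 1 member was higher, and HDAC3 turned from 0.21 to -0.18. In the lactate group 5 members were higher than in normoxia, beside 35.9%, and 4 lower, beside 36.8%. There SIRT1 (1.71 ± 0.056), SIRT3 (-1.17 ± 0.095) and SIRT7 (1.10 ± 0.057) were farthest from normoxia, and HDAC6 did not pass.

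**Figure D3:**
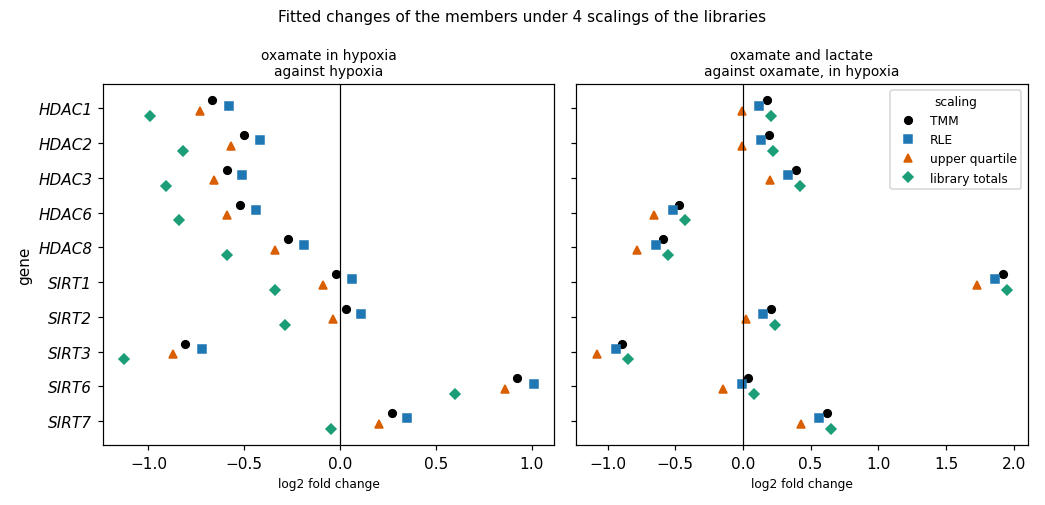
Log2 fold change of the 10 members (horizontal axis) with oxamate against hypoxia and with lactate against oxamate under 4 scalings of the libraries, each with its own marker. SIRT3 keeps its sign in both panels and SIRT1 in the lactate panel, whereas SIRT2 and SIRT7 with oxamate change sign on unscaled totals, at -0.29 and -0.05.

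The other 8 genes of the families, which were not among the members, showed what the related enzymes did. In hypoxia 7 of 8 rose, beside 36.7% of all tested genes, and 1 fell (HDAC4), beside 36.8%. The 7 included SIRT4, at few counts, and HDAC10, whose exons overlap those of MAPK12 (both below). The median was 0.85 beside 0.02 for all tested genes. With oxamate 7 of 8 fell, beside 44.8% of tested genes, and HDAC4 rose, beside 35.7%, with a median of -0.94 beside -0.20. The HDAC4 call reversed to -0.01 on unscaled totals. It was lost with upper quartile normalization (0.25), no low-count filter (0.29) and DESeq2 (0.39). It was also lost without hypoxia replicate 1 (0.21) or normoxia replicate 2 (0.3). HDAC5, a class IIa enzyme that shuttles between nucleus and cytoplasm, stood at 10.5 and 10.2 CPM in normoxia, 44.4 and 46.5 in hypoxia, 14.8 and 14.0 under oxamate and 61.6 and 59.5 in the lactate group. It rose by 2.14 ± 0.068 in hypoxia, fell with oxamate (-1.66 ± 0.066) and rose with lactate (2.07 ± 0.066), the widest movement in the families among genes with more than a few counts.

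SIRT5, the mitochondrial desuccinylase, had the order of group means seen for SIRT3, although its normoxia and oxamate groups did not differ by the test (adjusted p = 0.135), at 14.0 and 14.3 CPM in normoxia, 22.8 and 21.2 in hypoxia, 13.1 and 12.3 under oxamate and 10.0 and 8.92 in the lactate group. It rose by 0.64 ± 0.083 in hypoxia and fell with oxamate (-0.79 ± 0.086). SIRT4, also mitochondrial, had 11 counts in normoxia, 42 in hypoxia, 1 with oxamate and 10 in the lactate group. Its call in hypoxia was lost with DESeq2 (1.95, adjusted p = 0.0634). Hypoxia over normoxia was 3.86-fold with a counting interval of 1.95 to 8.31 (95% Clopper-Pearson, counting error only), and hypoxia over oxamate was 36.7-fold with an interval of 6.23 to 1480. HDAC10, a polyamine deacetylase, rose by 1.11 ± 0.091 in hypoxia and fell with oxamate (-1.10 ± 0.093). It shares 55.8% of its exon bases with MAPK12 on the same strand, so its counts are uncertain. MAPK12 changed by 1.21 and -1.26 in these steps, and its part in the HDAC10 values was not tested. HDAC11 changed by 0.98 and -1.20, HDAC7 by 0.73 and -0.31 and HDAC9 by 0.73 and -0.24 in the same steps. The fall of HDAC9 with oxamate did not pass under every alternative.

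**Figure D4:**
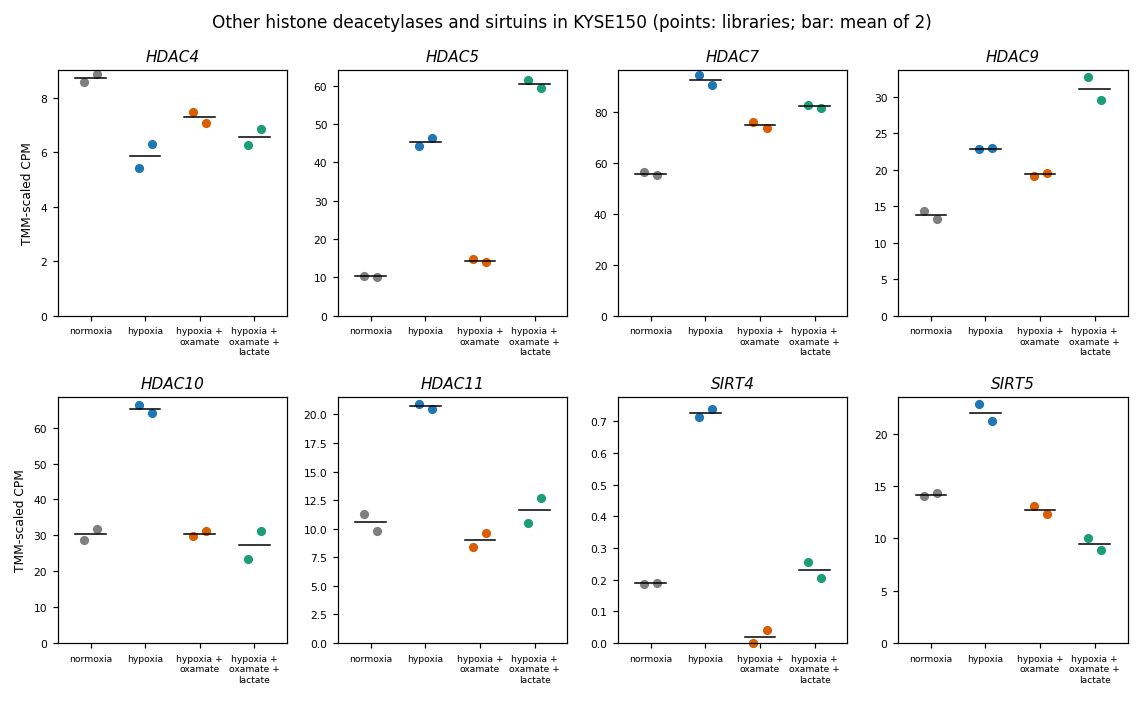
Level of the 8 other histone deacetylases and sirtuins in each library, in TMM-scaled CPM from 0 on the vertical axis and by group on the horizontal axis, with points for libraries and bars for group means. HDAC5 is high in hypoxia and in the lactate group, and SIRT4 stays under 1 CPM throughout.

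Genes of the complexes, the NAD pathway, acyl transfer and SIRT3 substrates are given as counts that passed the plain rule. Medians of all tested genes were 0.02 in hypoxia, -0.20 with oxamate and -0.02 with lactate against oxamate. Of all tested genes, 36.7% rose and 36.8% fell in hypoxia, and 35.7% rose and 44.8% fell with oxamate. With lactate against oxamate 33.2% rose and 31.7% fell. These shares are the background of every list count below in the same comparison. The subunits that carry HDAC1 and HDAC2 moved in several directions. Of 11 NuRD genes, 5 rose and 6 fell in hypoxia, 7 rose and 1 fell with oxamate, and 3 rose and 6 fell with lactate on top, with medians of -0.11, 0.23 and -0.15. On unscaled totals 4 rose and 5 fell with oxamate, with a median of -0.09. The chromatin remodeler CHD3 rose in hypoxia (1.23 ± 0.035) and GATAD2A fell (-1.07 ± 0.046), and the HDAC-binding subunit MTA2 rose with oxamate (1.13 ± 0.039). Of 13 SIN3 genes, 5 rose and 5 fell in hypoxia, 6 rose and 4 fell with oxamate (7 fell on unscaled totals) and 7 rose and 2 fell with lactate (6 fell with upper quartile normalization). Against hypoxia, 11 of the 13 were higher in the lactate group, beside 38.5% of all tested genes, and 1 lower, beside 40.2%. The median was 0.68 beside -0.05 for all tested genes. Unscaled totals and upper quartile normalization moved the median of all genes there by -0.28 and -0.26. In the same comparison 4 NuRD genes were higher and 5 lower, 3 and 4 CoREST genes, and 1 and 2 MiDAC genes. For NAD synthesis the counts were 2 higher and 3 lower, and for acyl transfer 6 and 3. BRMS1, a SIN3 subunit known as a metastasis suppressor, fell from a mean of 86.4 CPM in normoxia to 20.6 in hypoxia (-2.07 ± 0.048) and rose to 171 with oxamate (3.05 ± 0.046). ARID4B rose with lactate (1.90 ± 0.053).

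Of the CoREST genes, most rose in hypoxia, where 6 of 8 rose and 0 fell by the edgeR test (median 0.57), with 1 lower at an unadjusted p under 0.05 and 0 by DESeq2. The 1 was KDM1A, the LSD1 demethylase, at -0.08 ± 0.038 (adjusted p = 0.0577), named after its value was seen. The count lower became 1 on unscaled totals, without hypoxia replicate 1 and without any 1 library of the oxamate or lactate groups. With oxamate 3 rose (0 on unscaled totals) and 5 fell (median -1.13), and with lactate on top 6 rose and 1 fell (median 0.73). PHF21A, the subunit that reads unmethylated histone H3, rose from 17.6 to 120 CPM in hypoxia (2.76 ± 0.058), fell to 17.8 with oxamate (-2.75 ± 0.059) and stood at 42.9 in the lactate group (1.27 ± 0.067). RCOR2 rose from 0.363 to 8.68 CPM in hypoxia (4.58 ± 0.26). MIDEAS, the MiDAC scaffold, changed by 1.25 ± 0.043 in hypoxia, -1.78 ± 0.047 with oxamate and 1.66 ± 0.048 with lactate on top, and its partner DNTTIP1 by -0.17 ± 0.047, 0.99 ± 0.045 and -0.40 ± 0.044.

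Genes that supply NAD, the cofactor of sirtuins, mostly rose in hypoxia and fell with oxamate. The list holds enzymes of NAD synthesis and the mitochondrial NAD transporter SLC25A51, named after its value was seen, which was among the genes that rose in hypoxia. Of 10 listed genes 6 were tested: 5 rose and 1 fell in hypoxia (median 0.65), 1 rose and 5 fell with oxamate (median -0.59), and 3 rose and 2 fell with lactate (median 0.36, or -0.01 without oxamate replicate 2). NAMPT, the rate-limiting enzyme of NAD salvage, went from 148 to 381 CPM in hypoxia (1.37 ± 0.033) and from 322 with oxamate to 586 in the lactate group (0.87 ± 0.032). Nicotinamide mononucleotide adenylyltransferase NMNAT1 fell with oxamate (-1.81 ± 0.14) and rose with lactate (1.3 ± 0.15). Of 6 tested genes that use NAD or nicotinamide, 0 rose and 5 fell in hypoxia by the edgeR test (median -0.57). There were 0 higher also at an unadjusted p under 0.05 and by DESeq2. PARP1 (-0.93 ± 0.036), the main poly(ADP-ribose) polymerase, was among those that fell. With oxamate 3 rose and 2 fell, and NADK2, the mitochondrial NAD kinase, was among those that fell (-1.82 ± 0.10).

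Of 10 genes for enzymes that add or supply acyl groups, 3 rose and 5 fell in hypoxia, and 7 rose and 2 fell with oxamate. With lactate 4 rose and 5 fell, and the medians were -0.29, 0.44 and -0.12. KAT2A, the acetyltransferase GCN5, fell from 89.9 to 37.3 CPM in hypoxia (-1.27 ± 0.060) and rose to 146 with oxamate (1.97 ± 0.059). EP300 (1.26 ± 0.070) and CREBBP (1.11 ± 0.048), the paralogs p300 and CBP, rose with lactate. Of 6 tested genes for SIRT3 substrates, 1 rose and 3 fell in hypoxia, 4 rose and 2 fell with oxamate, and 0 rose and 4 fell with lactate by the edgeR test (medians -0.25, 0.62 and -0.65). The 0 stood also at an unadjusted p under 0.05 and by DESeq2. IDH2, a mitochondrial isocitrate dehydrogenase, rose in hypoxia (1.35 ± 0.041) and fell with lactate (-0.67 ± 0.044), and PDHA1 of the pyruvate dehydrogenase complex fell with lactate (-0.77 ± 0.039).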

How the data were processed

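The authors deposited 1 table of whole-number counts per gene without normalization. Without giving roles, the submitters' processing notes list STAR 2.7.8a, RSEM 1.3.3, FastQC 0.11.9 and the build GRCh38 (hg38), so the counts may be rounded RSEM estimates, which could shift reads between overlapping genes. The strand setting is not given in the sources used here. Genes were kept by filterByExpr (minimum count 10) and scaled by TMM (factors 0.879 to 1.15) with edgeR 4.0.16 (R 4.3.3, limma 3.58.1). One robust quasi-likelihood model with 4 group means was fitted to all 8 libraries, leaving 4 residual degrees of freedom, and the tests were two-sided. The common biological coefficient of variation was 3.06%. Within groups, the chi-square per degree of freedom of replicate counts was above sampling noise. It was 1.84 in normoxia, 2.09 in hypoxia, 2.03 with oxamate and 4.78 in the lactate group. The model shares its spread over all groups, so standard errors of comparisons with the lactate group may be too small.

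The members and gene lists were chosen with earlier results of these data known. Every member and every other gene of the families is named, with up to 2 genes per list and comparison, those changed most among passing genes whose mean log2 CPM was 1 or more. A further 3 genes are named by likeness to SIRT1. Gene positions and exon overlap come from GENCODE 29 (GRCh38), and promoter letters from RefSeq. Some listed genes are not reported here. Alternatives were RLE, upper quartile and unscaled normalization, no low-count filter, 50 counts in 2 libraries, DESeq2 1.42.0, a fit of 2 groups alone, the replicate number as a block and each library left out.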

Additional observations from a re-analysis of the deposited data

How the results depend on the processing

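Of 960 alternative values of single members, 912 stayed on their side of the threshold without reversing a call (17 of them changed the sign of a difference that did not pass), 38 no longer passed, 2 newly passed and 8 reversed. The reversed values were, with oxamate against hypoxia on unscaled totals, -0.29 for SIRT2, -0.05 for SIRT7 and -0.01 for HDAC4 of the wider family. With lactate against oxamate under upper quartile normalization they were -0.01 for HDAC1 and HDAC2, -0.05 for HDAC7 and -0.06 for PARP2. The lactate group against hypoxia gave -0.02 (upper quartile) and -0.05 (unscaled totals) for SIRT2. Against normoxia on unscaled totals, HDAC3 in the oxamate group gave -0.18 and HDAC6 in the lactate group -0.24. The cause was not tested, but unscaled totals moved the median of all genes by -0.32, -0.28, -0.39 and -0.35. These are the 4 comparisons of the oxamate or lactate group with hypoxia or normoxia. Upper quartile normalization moved it by 0.11 in hypoxia against normoxia and by -0.19 with lactate against oxamate.

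With oxamate against hypoxia, 1 member was higher on unscaled totals (2 as reported), and 0 past 1.5-fold (1 as reported). The 2 members lower past 1.5-fold became 5 on unscaled totals, 1 under RLE, under the stricter filter and in the fit of those groups alone, and 0 under DESeq2, with 0 to 2 when a library was left out. Members higher with lactate against oxamate numbered 3 under upper quartile normalization and the stricter filter and 3 to 6 with a library left out. Those lower past 1.5-fold there numbered 2 under upper quartile normalization and 0 under DESeq2. For the lactate group against hypoxia, 1 was higher past 1.5-fold on unscaled totals. For oxamate against normoxia, 1 was higher on unscaled totals and 2 were lower under DESeq2, with 2 to 5 lower when a library was left out. A library left out of a pair leaves a lone sample that is assumed to vary like the other groups.

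Deviations of libraries with the same replicate number correlated between -0.05 and 0.01 over all tested genes. Whether such libraries shared a culture or batch was not tested. With the replicate block, 5 members were higher and 4 lower in hypoxia against normoxia, the counts without it. With 2 libraries per group, precision rests on a spread shared by all groups.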
